A study of Homo sapiens with 6 samples.

Results

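The genes described here are 9 interferon-responsive genes, BST2, ISG15, IFITM1, IFITM2, IFITM3, IFI6, STAT2, IRF9 and ADAR, taken by name from the 19330 genes of a count table of K562 cells. K562 is a human chronic myelogenous leukemia line, and RNA-Seq was performed on 3 control libraries (sgCtrl) and 3 libraries depleted of N6AMT1 (sgN6AMT1). The question was whether the interferon genes that K562 cells do express differed upon N6AMT1 depletion, which the study connected to unprocessed and double-stranded mitochondrial RNA.

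Both conditions carried the lentiviral CRISPR/Cas9 vector pLentiCRISPRv2, were selected with puromycin and were collected 10 days after infection. The labels list the control sgRNAs as OR11A1 and OR2M49, whereas the methods of the study name EGFP, or OR11A1 and OR2M4, which are olfactory receptor genes. The sgN6AMT1 cells received sgRNAs against N6AMT1, a methyltransferase gene. The sources do not tie a library to its sgRNA. Each library came from its own transduction, and nothing in the sources describes the cells as clones, so each is read here as a selected population. The type I interferon genes are deleted in this line, which limits it as a model of interferon production.

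Type I interferon binds the receptor IFNAR1/IFNAR2 and activates the kinases JAK1 and TYK2, which phosphorylate STAT2. STAT2 and IRF9 are subunits of ISGF3, a complex that binds the interferon-stimulated response element (ISRE) in the promoters of its targets. The gamma-activated site (GAS) is another element of interferon-responsive promoters. Upstream, cytosolic double-stranded RNA is sensed by RIG-I (DDX58) and MDA5 (IFIH1), which signal through MAVS to induce interferon beta. Cells without interferon of their own can still hold a basal level of many ISRE genes.

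Total counts were 742470 to 866894 in the sgCtrl libraries and 959319 to 5526904 in the sgN6AMT1 libraries, with sgN6AMT1 replicates 2 and 3 the deepest, so the conditions differ in depth as well as in genotype. N6AMT1 itself was counted 6, 5 and 9 times in sgCtrl, against 0, 18 and 16 times in sgN6AMT1, a ratio of pooled cpm (counts scaled to library size) of 0.399 (95% interval 0.223 to 0.731), and was too low for the test. An edited gene may still be transcribed, so its RNA is a weak check of the labels. The 13 mitochondrially encoded ORFs held 3.21 to 5.26% of counts in sgCtrl and 0.461 to 1.92% in sgN6AMT1. All of 8 erythroid markers, typical of K562 cells, were detected, with a summed level of 11580 to 18440 cpm in sgCtrl and 18780 to 34050 cpm in sgN6AMT1, and 3 of them (HBE1 and the near-identical HBG1 and HBG2) rose.

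The ISRE is the sequence that links these genes to the pathway, so its matches in their promoters are shown first. In RefSeq promoter windows (GRCh38.p14, 250 bases before to 50 after each start), 8 of the 9 members had an entry. The letters GAAANNGAAA, searched on both strands, occurred in 5 of these 8 (62.5%), in 53 of 116 other interferon pathway genes (45.7%) and in 1195 of all 27305 genes (4.38%). One match is given for each of BST2, ISG15 and IFI6 and the match nearest the start for IFITM1 and IFITM3, 5′ to 3′ on the strand of the gene, with the ISRE letters in capitals.
BST2, chr19:17405738-17405767, minus strand: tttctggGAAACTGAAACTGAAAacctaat
ISG15, chr1:1013377-1013406, plus strand: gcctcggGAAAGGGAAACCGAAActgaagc
IFI6, chr1:27672288-27672317, minus strand: ggagagagggGAAAATGAAActgcagagtg
IFITM1, chr11:314024-314053, plus strand: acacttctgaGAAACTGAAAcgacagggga
IFITM3, chr11:320876-320905, minus strand: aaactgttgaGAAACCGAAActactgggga

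BST2 and ISG15 each held overlapping ISRE matches that form a run of 3 GAAA blocks. These began 130 bases before the start in BST2 and 113 bases before it in ISG15, against 6 bases in IFITM1 and 35 bases in IFITM3. The windows of STAT2, IRF9 and ADAR did not hold these letters, and other spacings of the GAAA blocks were not searched. ADAR had 3 windows, and the last bases of none of them occur in its canonical transcript. Whether these windows include the interferon-induced promoter of ADAR was not checked. The GAS letters TTCNNNGAA, also searched on both strands, occurred in BST2, IFITM1 and IRF9, which is 37.5% of the 8 members against 24.1% of the other pathway genes and 9.38% of all genes, and in BST2 and IFITM1 a GAS match overlapped an ISRE match. A match describes the letters in the window and is not a measured binding site.

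At the level of expression, 6 of the 9 members had enough counts to be tested and 1 of them, BST2, rose in sgN6AMT1. This is 16.7% of the tested members, against 9.85% of all 8324 genes tested with edgeR (820 genes). By direction, 5.09% of all tested genes rose and 4.76% fell. The log2 fold change (sgN6AMT1 over sgCtrl) was above 0 for 4 of the 6 members and below 0 for 2, with a median of 0.22 beside a median of 0.0087 over all genes. At an unadjusted p below 0.05 there were 2 members, BST2 and STAT2, beside 26.2% of all genes, and the same 2 members did not overlap between conditions, beside 29.2% of all genes. One gene more or less changes these shares greatly, so nothing particular to the members is read from them.

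**Figure D1:**
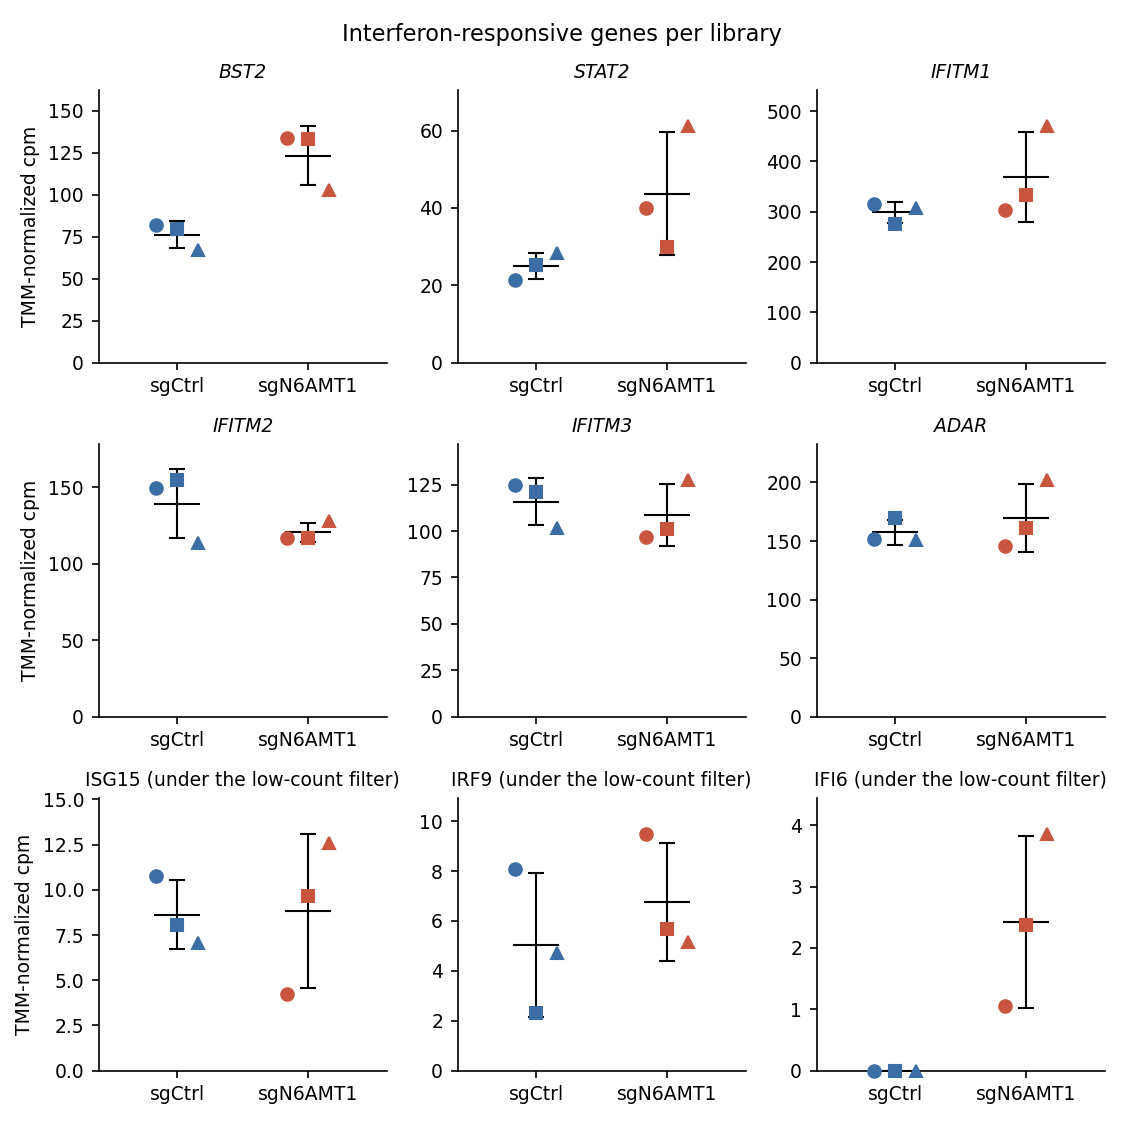
Each point is 1 library (circle, square and triangle for replicates 1, 2 and 3) of sgCtrl or sgN6AMT1, in TMM-normalized cpm (counts scaled to library size and composition) on a linear axis from 0 for each of the 9 members, with the mean as a horizontal line and the SD as bars. BST2 sits at 67.2 to 82.0 cpm in sgCtrl and at 103 to 134 cpm in sgN6AMT1, while the 3 IFITM genes and ADAR overlap and IFI6 is at 0 in sgCtrl.

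BST2 (tetherin), which holds budding enveloped viruses at the cell surface, lies on chr19:17402939-17405630 (minus strand, GRCh38). Its normalized level (TMM-normalized cpm) was 82.0, 79.6 and 67.2 in sgCtrl and 134, 133 and 103 in sgN6AMT1, from 57 to 69 counts and 127 to 729 counts per library. Every sgN6AMT1 library was above every sgCtrl library. The means were 76.3 ± 7.94 and 123 ± 17.7 cpm (SD, n = 3 each), and the log2 fold change was 0.69 with a standard error of 0.18 (edgeR quasi-likelihood test, Benjamini-Hochberg adjusted p = 0.0246). In linear terms this is 1.61-fold with a 95% interval of 1.23 to 2.10. By permutation of the 3 against 3 libraries the exact two-sided p was 0.1, the smallest this design allows.

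The call for BST2 depended on how the libraries were handled. Without any 1 of the 3 sgCtrl libraries, or without sgN6AMT1 replicate 2, it missed the threshold, with a log2 fold change of 0.60 to 0.81 and an adjusted p of 0.00546 to 0.0967 over the 6 libraries left out in turn. After correction for transcript GC content and length the log2 fold change was 0.50 and the adjusted p 0.0935 (edgeR). The transcript of BST2 has 57.3% GC, above 79.4% of tested genes, and across tested genes the median log2 fold change went from -0.14 in the fifth of genes with the lowest GC to 0.19 in the fifth with the highest. The direction was positive in every alternative, as the plot of BST2 and STAT2 across alternatives shows.

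**Figure D2:**
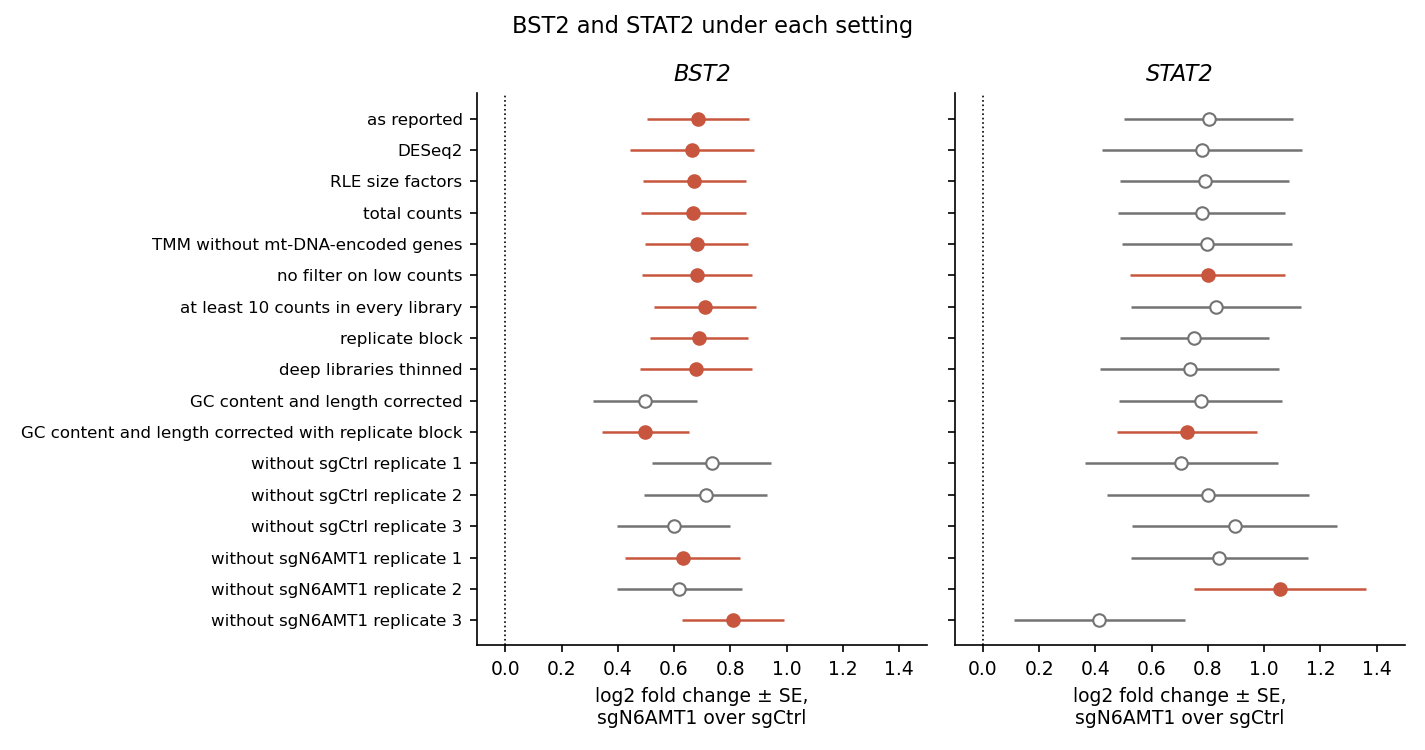
Each point is the log2 fold change (sgN6AMT1 over sgCtrl, standard error as bars) of BST2 or STAT2 under 1 way of handling the counts, filled where the Benjamini-Hochberg adjusted p is under 0.05. BST2 ranges from 0.50 to 0.81 and STAT2 from 0.41 to 1.06, all above 0.

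STAT2 encodes the signalling subunit that brings ISGF3 its activation domain (chr12:56341597-56360203, minus strand). Its normalized level was 21.5, 25.4 and 28.3 cpm in sgCtrl and 40.0, 29.9 and 61.2 cpm in sgN6AMT1. The lowest sgN6AMT1 library was only slightly above the highest sgCtrl library, and the sgN6AMT1 libraries spread widely. The means were 25.1 ± 3.41 and 43.7 ± 15.95 cpm (SD, n = 3 each), and the log2 fold change was 0.80 with a standard error of 0.30, which did not pass the test (edgeR, adjusted p = 0.0971). Replicate 3 of sgN6AMT1 carried much of it: without that library the log2 fold change was 0.41 (adjusted p = 0.471), and without replicate 2 it was 1.06 (adjusted p = 0.0425).

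IRF9 encodes the DNA-binding subunit of ISGF3 (chr14:24161234-24168043, plus strand). It was counted 6, 2 and 4 times in sgCtrl, against 9, 31 and 20 times in sgN6AMT1, too few for the test. Of its canonical transcript, 92.8% of 60-base stretches, the read length, also occur in the overlapping gene ENSG00000259529. Its ratio of pooled cpm was 1.17 with a 95% interval of 0.625 to 2.40, so a change could not be judged at this depth. These intervals on pooled counts cover counting error only and not the spread between transductions.

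The IFITM genes encode small membrane proteins that block fusion of viruses entering the cell, and lie side by side on chromosome 11. IFITM1 (chr11:310041-315272, plus strand) had a normalized level of 314, 275 and 307 cpm in sgCtrl and 304, 333 and 470 cpm in sgN6AMT1. The conditions overlapped, and only sgN6AMT1 replicate 3 lay far above the sgCtrl libraries. The log2 fold change was 0.31 (95% interval -0.04 to 0.66, edgeR adjusted p = 0.242), and without that replicate it was 0.10.

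IFITM2 (chr11:303655-309397, plus strand) had 149, 155 and 113 cpm in sgCtrl and 117, 117 and 128 cpm in sgN6AMT1. IFITM3 (chr11:319676-329475, minus strand) had 125, 121 and 101 cpm in sgCtrl and 97.0, 101 and 128 cpm in sgN6AMT1. Both overlapped between conditions. The log2 fold change was -0.20 for IFITM2 (95% interval -0.55 to 0.15, edgeR adjusted p = 0.476) and -0.08 for IFITM3 (95% interval -0.44 to 0.28, edgeR adjusted p = 0.817).

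IFITM1 to IFITM3 share sequence, so their counts are not independent. The canonical transcripts of IFITM2 and IFITM3 are 94.0% identical, and 53.4% of the 60-base stretches of IFITM1, 10.5% of those of IFITM2 and 16.3% of those of IFITM3 also occur in another gene. For IFITM1 most of this is a readthrough gene, ENSG00000288681. How reads that fit several genes were counted is not given in the sources used here, so each gene's value is uncertain to that extent. As a share of the counts of the 3 genes, IFITM1 held 53.4, 49.9 and 58.8% in sgCtrl and 58.7, 60.4 and 64.8% in sgN6AMT1, which overlapped by a narrow margin (exact two-sided permutation p = 0.2). The share of IFITM3 was 20.9 ± 1.31% in sgCtrl and 18.2 ± 0.596% in sgN6AMT1 (n = 3 each, SD) without overlap, where the exact permutation p of 0.1 is the smallest possible.

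ADAR encodes the adenosine deaminase that edits double-stranded RNA and has an interferon-induced promoter (chr1:154581695-154628013, minus strand). Its normalized level was 152, 170 and 151 cpm in sgCtrl and 145, 161 and 202 cpm in sgN6AMT1, and the conditions overlapped. The log2 fold change was 0.12 (95% interval -0.22 to 0.46, edgeR adjusted p = 0.698), which leaves room for a rise to 1.38-fold or a fall to 0.856-fold. Without sgN6AMT1 replicate 3 it was -0.03. The table gives 1 count per gene, so the interferon-induced and constitutive promoters of ADAR were not separated.

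**Figure D3:**
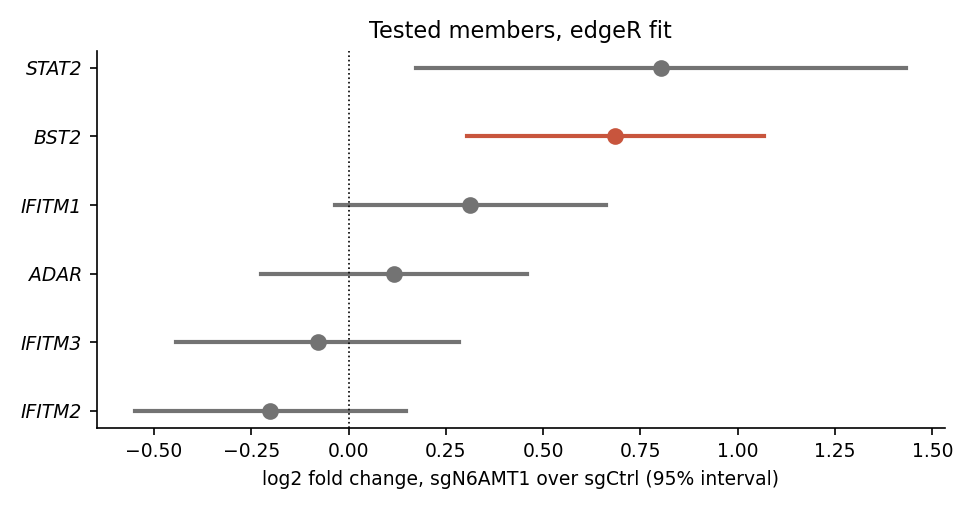
Each point is the log2 fold change (sgN6AMT1 over sgCtrl) of a tested member with its 95% interval from edgeR, in red where the adjusted p is under 0.05 (BST2). The interval of BST2 runs from 0.30 to 1.07 and that of STAT2 from 0.17 to 1.43, while those of IFITM1, IFITM2, IFITM3 and ADAR include 0.

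ISG15 and IFI6 are among the most strongly interferon-induced genes of many cell types, and both were too low here for the test. ISG15, a ubiquitin-like modifier (chr1:1001138-1014540, plus strand), was counted 8, 7 and 6 times in sgCtrl, against 4, 53 and 49 times in sgN6AMT1. Relative to depth these were 10.8, 8.08 and 7.07 cpm against 4.22, 9.67 and 12.6 cpm, so that both the lowest and the highest library were sgN6AMT1 libraries. The ratio of pooled cpm was 1.19 (95% interval 0.737 to 1.99), which includes no change.

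IFI6, a protein known to protect cells against viral replication and cell death (chr1:27666064-27672212, minus strand), had 0 counts in all 3 sgCtrl libraries and 1, 13 and 15 counts in sgN6AMT1. The 0 of 2475519 pooled sgCtrl counts allows up to 1.21 cpm (3 counts over the group), and the 29 of 10548586 pooled sgN6AMT1 counts are 2.75 cpm. The pooled sgN6AMT1 level, which rests on the 2 deep libraries, was 2.27-fold above what 0 counts allow in sgCtrl. This value leaves out counting error in sgN6AMT1, so it is not a lower limit of the difference. The exact Poisson interval (95%) of each sgCtrl library alone reached 4.26 to 4.97 cpm. That is above the 1.04 to 3.69 cpm (counts scaled to library size) of the sgN6AMT1 libraries, so single libraries do not separate the conditions. IFI6 did not pass the test without a filter on low counts (edgeR, adjusted p = 0.0620), and DESeq2 gave no adjusted p. Of its 60-base stretches, 20.8% also occur in LINC02574. The exact permutation p was 0.1, the smallest possible.

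Levels of different genes were compared per kilobase of canonical transcript. In sgCtrl, IFITM1 was highest at 447 ± 31.6 cpm per kb, followed by IFITM3 at 190 ± 20.7, IFITM2 at 138 ± 22.4, BST2 at 76.2 ± 7.93 and ADAR at 23.8 ± 1.59. Below these came ISG15 at 13.6 ± 2.98, STAT2 at 5.69 ± 0.774 and IRF9 at 3.09 ± 1.78 cpm per kb (SD, n = 3 each), with IFI6 at 0. The STAT2 and IRF9 libraries overlapped, and the other neighbours down to STAT2 did not. In sgN6AMT1 the order was the same except that BST2 (123 cpm per kb) was just above IFITM2 (120 cpm per kb), by less than the spread between libraries.

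By the Euclidean distance between log2 profiles over the 6 libraries, each centred on its own mean, the tested genes most like BST2 were RNF168 (0.145) and SGPL1 (0.149). Those nearest STAT2 were TMED4 (0.283) and GLB1 (0.326), and those nearest IFITM1 were IMP3 (0.115) and FTSJ1 (0.119). None of these is on the interferon list.

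The other genes of the pathway were followed on a list of 157, of which 155 are in the table. Of these, 40 had no count in any library, 55 had counts too low to test and 60 were tested. With edgeR, 3 rose (B2M, PSMB10 and APOL2) and 1 fell (JAK2), which is 6.67% of the tested genes and below the 9.85% of all genes. The median log2 fold change was 0.12, with 32 above 0 and 28 below, and 35.0% did not overlap between conditions, beside 29.2% of all genes. Of the 60, 48 were above the count filter in all 3 sgCtrl libraries, so the rest passed in part through sgN6AMT1. Among the untested genes, 37 had at least 10 counts summed over the libraries. Their median log2 ratio of pooled cpm (0.5 added to each sum) was 0.86, with 78.4% above 0. All 3054 untested genes with such counts had a median of 0.23, with 59.6% above 0. These ratios rest on few sgCtrl counts and on the deeper sgN6AMT1 libraries, and the difference was not tested.

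**Figure D4:**
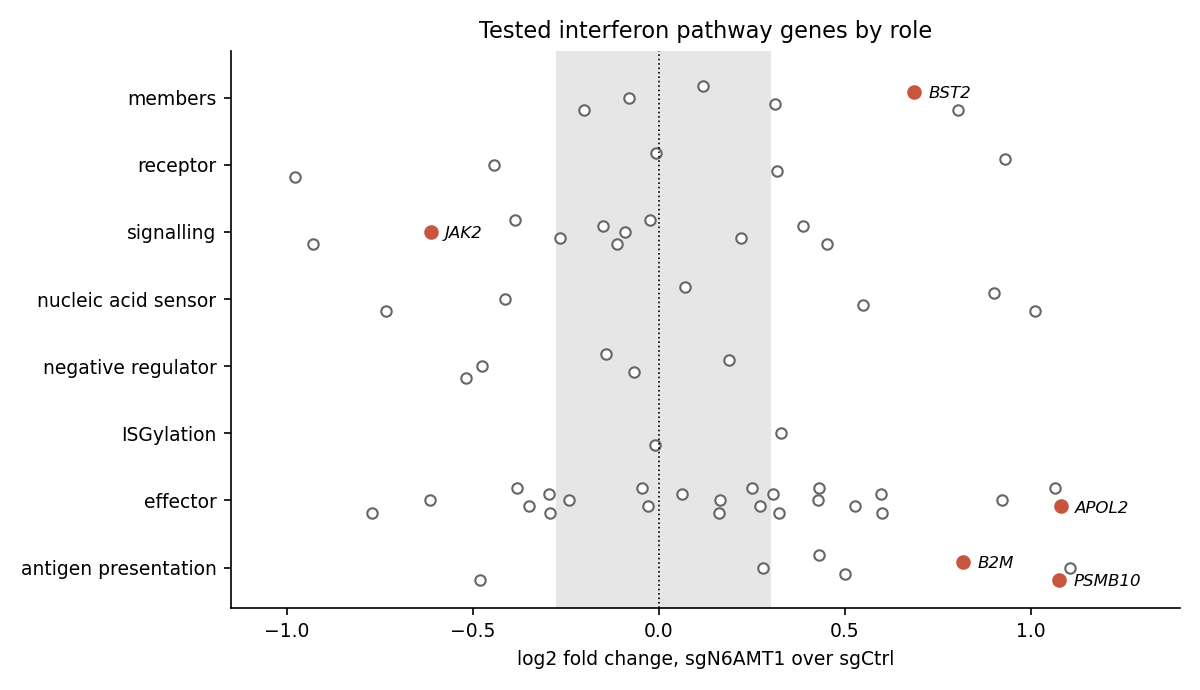
Each point is the log2 fold change (sgN6AMT1 over sgCtrl) of 1 tested gene, arranged by role, filled and named where the adjusted p from edgeR is under 0.05. The grey band holds the middle of all tested genes, from the lower quartile (-0.27) to the upper quartile (0.30), and points fall on both sides of it for most roles.

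No interferon RNA was seen. All 20 ligand genes in the table, IFNB1 among them, had 0 counts in all 6 libraries, which allows up to 1.21 cpm pooled over sgCtrl and 0.284 cpm over sgN6AMT1. The 9p21 genes MTAP, CDKN2A, CDKN2B and DMRTA1, which neighbour the type I interferon cluster, were also at 0 in every library.

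The receptor and kinase genes were expressed. Among 5 tested receptor genes none passed the test with edgeR or DESeq2. An unadjusted p below 0.05 (edgeR) was seen for 2 of the 5, in opposite directions, beside 26.2% of all genes. The log2 fold change was above 0 for 2 of the 5 and below 0 for 3. IFNAR1, a chain of the type I receptor, had 82.0, 56.5 and 61.3 cpm in sgCtrl and 52.7, 40.2 and 15.4 cpm in sgN6AMT1, a log2 fold change of -0.98 (edgeR, adjusted p = 0.0635). Without sgN6AMT1 replicate 1 it passed (-1.23, adjusted p = 0.0110), and without sgN6AMT1 replicate 3 the difference was smaller (-0.57, adjusted p = 0.144). The other chain, IFNAR2, had a log2 fold change of -0.44 (adjusted p = 0.445).

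Among 11 tested signalling genes 1 fell (9.09%), beside 4.76% of all genes. JAK2, a kinase of the interferon gamma receptor and of cytokine receptors such as that for erythropoietin, went from 99.0 ± 4.07 to 64.6 ± 10.5 cpm (n = 3 each, SD), with a log2 fold change of -0.61 (edgeR, adjusted p = 0.0446). The call was lost without any 1 of the 6 libraries (-0.75 to -0.47, adjusted p = 0.0514 to 0.135) and with DESeq2 (adjusted p = 0.0611). It was also lost with at least 10 counts required in every library (0.0546) and after GC and length correction (-0.40, adjusted p = 0.127, or 0.0967 with the replicate block). The log2 fold change was 0.22 for JAK1 (adjusted p = 0.417), 0.39 for TYK2 (adjusted p = 0.235) and -0.15 for MAVS (adjusted p = 0.745).

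Of 6 genes tested under the sensor role none passed the test with edgeR or DESeq2. An unadjusted p below 0.05 (edgeR) was seen for 5, beside 26.2% of all genes. The conditions did not overlap for 5, in both directions, beside 29.2% of all genes. The 6 include PNPT1 and SUPV3L1, which the study names as the mitochondrial RNA degradosome and not as sensors. PNPT1 is among the genes without overlap (log2 fold change -0.41, edgeR adjusted p = 0.0982). EIF2AK2, the double-stranded RNA-activated kinase PKR, went from 65.7 ± 12.4 to 40.9 ± 14.1 cpm (n = 3 each, SD), with a log2 fold change of -0.73 (edgeR, adjusted p = 0.0832). Without sgN6AMT1 replicate 1 it passed (-0.86, adjusted p = 0.0408), and without sgN6AMT1 replicate 3 the value was -0.44 (adjusted p = 0.261). The double-stranded RNA sensors IFIH1 and DDX58 were too low to test. IFIH1 was counted 1, 4 and 0 times in sgCtrl, against 8, 20 and 12 times in sgN6AMT1, a ratio of pooled cpm of 1.88 (95% interval 0.741 to 6.10). For DDX58 the counts were 4, 1 and 2 against 3, 61 and 35, a ratio of 3.32 (95% interval 1.55 to 8.47), with an adjusted p of 0.0761 without the filter (edgeR) and 0.314 with DESeq2.

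Of 24 tested effector genes 1 rose (4.17%), beside 5.09% of all genes. APOL2, an apolipoprotein L family member, had 20.2, 12.7 and 21.2 cpm in sgCtrl and 35.8, 43.6 and 33.4 cpm in sgN6AMT1, a log2 fold change of 1.08 (edgeR, adjusted p = 0.0243). It missed the threshold with DESeq2 (adjusted p = 0.0523), with the deep libraries thinned to the depth of the others (0.0648) and without sgCtrl replicate 1 (0.0605), sgCtrl replicate 2 (0.145) or sgN6AMT1 replicate 2 (0.109). The effectors MX1, IFI44, IFI44L, IFIT5, XAF1 and GBP1, chosen here after their values were seen, were at 0 in all 6 libraries. IFIT1, IFNB1, USP18 and GBP2 are named here because they were also followed by qPCR in HeLa cells. IFIT1 had 0 counts in sgCtrl and 1, 1 and 3 in sgN6AMT1, which is under what 0 counts allow in sgCtrl. GBP2, an interferon-induced GTPase, was counted 1, 0 and 0 times in sgCtrl, against 3, 35 and 16 times in sgN6AMT1, a ratio of 12.7 with a 95% interval of 2.18 to 510. Its adjusted p was 0.0284 with edgeR without the filter, and DESeq2 gave none.

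Negative regulators and ISGylation genes gave no call with edgeR among 5 and 2 tested. An unadjusted p below 0.05 (edgeR) was reached by 2 and 0 of them, beside 26.2% of all genes. USP18, the protease that removes ISG15 from proteins and damps receptor signalling, was counted 2, 4 and 2 times in sgCtrl, against 0, 1 and 2 times in sgN6AMT1, a ratio of pooled cpm of 0.088 (95% interval 0.0150 to 0.367). It did not pass with edgeR without the filter (adjusted p = 0.0578), and DESeq2 gave no adjusted p. DESeq2 called 1 negative regulator, SOCS1, which the count filter had left out, and no ISGylation gene.

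Antigen presentation genes had the highest median log2 fold change of the roles, 0.50 over 7 tested genes of 16 listed. Of the 7, 2 rose, beside 5.09% of all genes, and 6 were above the count filter in all 3 sgCtrl libraries. B2M, the light chain of MHC class I, had 276, 310 and 332 cpm in sgCtrl and 546, 523 and 552 cpm in sgN6AMT1. All sgN6AMT1 libraries were far above all sgCtrl libraries, and the log2 fold change was 0.82 with a standard error of 0.14 (edgeR, adjusted p = 0.00193). It passed the test in all 16 alternatives. PSMB10, a subunit of the immunoproteasome, had 17.5, 19.6 and 24.8 cpm in sgCtrl and 28.5, 40.3 and 57.3 cpm in sgN6AMT1, a log2 fold change of 1.08 (edgeR, adjusted p = 0.0289). It missed the threshold with DESeq2 (adjusted p = 0.0582), with the deep libraries thinned (0.05003) and without sgCtrl replicate 1 (0.110), sgCtrl replicate 2 (0.125), sgN6AMT1 replicate 2 (0.0526) or sgN6AMT1 replicate 3 (0.120).

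Markers of other blood cells were followed beside these genes, since monocytes and lymphocytes express many interferon genes. In bulk RNA, fewer cells of a type and less RNA per cell cannot be told apart. The summed level of 8 monocyte markers was 40.4 to 43.8 cpm in sgCtrl and 64.6 to 88.8 cpm in sgN6AMT1, with S100A8 and FCN1 at 0, and 1 marker, LYZ, rose. The 5 lymphoid markers in the table summed to 11.6 to 18.9 cpm in sgCtrl and 15.02 to 21.9 cpm in sgN6AMT1, with MS4A1 at 0. Only LYZ and CD68 of the monocyte markers, and only CD3D of the lymphoid ones, had enough counts to be tested. CD3D held all 14, 14 and 10 lymphoid counts of the sgCtrl libraries, so these sums describe few genes. The part of these shifts, and of the erythroid shift, in the values of BST2, B2M or APOL2 was not tested.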

How the data were processed

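RNA-Seq libraries of K562 cells, 3 sgCtrl and 3 sgN6AMT1, were compared. The authors prepared stranded, rRNA-depleted total RNA (the labels state polyA RNA), sequenced 60 nt single-end reads, trimmed them with cutadapt (minimum length 15, quality 2), mapped them with HISAT2 to GRCh38 (release 84) and deposited raw counts per gene. The counting tool, its strand setting and its treatment of multimapping reads are not given in the sources used here. From the deposited counts, genes were filtered with filterByExpr (about 10.95 cpm), TMM-normalized and tested with glmQLFTest in edgeR 4.0.16 (R 4.3.3) over the 6 libraries without covariates, with Benjamini-Hochberg adjustment over 8324 genes and a threshold of 0.05. Single values were compared by exact permutation tests (scipy 1.17.1) and ratios of pooled counts by exact binomial intervals (95%). Counts of a single library had exact Poisson intervals (95%). A pooled count of 0 was read as allowing 3 counts. The scripts were tested on simulated counts. DESeq2 1.42.0 and the other alternatives are described in the closing section.

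Named genes were the 9 members, IFNB1, USP18, IFIT1, GBP2, the receptor and kinase genes IFNAR1, IFNAR2, JAK1 and TYK2, the double-stranded RNA sensors IFIH1, DDX58 and EIF2AK2 with the adaptor MAVS, every other pathway gene with adjusted p under 0.05, N6AMT1, and the 2 nearest profiles of the 3 members with the smallest p. One further gene of this rule is not reported here. The members and lists were chosen with earlier results of these data known. Of 19330 symbols, 18855 matched GENCODE 44, 871 of them as older symbols. The labels' replicates came from separate transductions. Their counts differed by more than sampling noise (chi-square per degree of freedom 2.13 to 12.6).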

Additional observations from a re-analysis of the deposited data

How the results depend on the processing

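The number of members called (1, BST2) was 2 without a filter on low counts, 2 with GC and length correction plus the replicate block and 2 at an adjusted p under 0.10 (BST2 and STAT2 each time), 0 with GC and length correction alone, and 0 to 1 when each library was left out. Without sgN6AMT1 replicate 2 that 1 member was STAT2. Pathway genes called (4) were 2 with DESeq2, 12 without a filter, 9 with the replicate block, 8 with GC and length correction plus the block, 14 at an adjusted p under 0.10 and 1 to 7 with a library left out. All genes called were 820 of 8324 (9.85%), beside 632 of 9659 (6.54%) with DESeq2 and 1201 of 13874 (8.66%) without a filter. The share was 14.4% with the replicate block (1195), 11.1% with GC and length correction (927) and 16.8% with both (1399). At an adjusted p under 0.10 there were 1346 of 8324 genes, and with a library left out 220 to 951 (2.54 to 11.2%). The number of genes tested also changed, so nothing particular to members or pathway genes is read from their counts. The median of the members was 0.04 to 0.31 with a library left out, lowest without sgN6AMT1 replicate 3. ADAR ranged from -0.028 to 0.20 with a library left out. The causes were not tested.

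It was not clear whether replicate numbers pair the libraries. Correlations of same-numbered deviations were -0.0005, 0.083 and 0.19, beside -0.19 to 0.14 for differently numbered ones. For sgN6AMT1 replicates 2 and 3 the same-numbered sgCtrl library had the highest value, and for replicate 1 it did not. With the replicate block 1195 genes were called (edgeR), and BST2 had a log2 fold change of 0.69. Depth limits ISG15, IRF9 and IFI6, whose sgCtrl counts were 0 to 8 per library.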

Other observations

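SOCS1, a feedback inhibitor of JAK kinases that was picked after its values were seen, was counted 1, 6 and 1 times in sgCtrl, against 17, 99 and 33 times in sgN6AMT1. Its ratio of pooled cpm was 4.37 (95% interval 2.16 to 10.3), and it passed with DESeq2 (log2 fold change 2.16, adjusted p = 0.0475) and with edgeR without the filter (adjusted p = 0.00254). AIM2, a sensor of cytosolic DNA, and UBA7, the activating enzyme of ISG15, were also picked after their values were seen. Both had 0 counts in sgCtrl, and their pooled sgN6AMT1 levels were 2.11-fold and 1.96-fold above what 0 counts allow there. These values leave out counting error in sgN6AMT1. Because the genes were picked on their values and sgCtrl was sequenced less deeply, no change is read from them. Neither passed with edgeR without the filter (adjusted p = 0.0573 and 0.0934), and DESeq2 gave no adjusted p for them.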
